A study of Mus musculus with 13 samples.

Results

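Chromatin accessibility was examined around 6 genes that mark or maintain haematopoietic stem cells (HSCs): the surface proteins Kit, Procr and Slamf1 and the transcription factors Mecom, Hlf and Prdm16. Accessible regions were taken into the set when their midpoint lay in a fixed window around 1 of these genes, given in mm9 coordinates. This rule itself reads no measured value. The windows were chr5:75800000-76070000 (Kit), chr2:155560000-155595000 (Procr), chr1:173680000-173740000 (Slamf1), chr3:29830000-30430000 (Mecom), chr11:90140000-90265000 (Hlf) and chr4:153670000-154030000 (Prdm16). They held 184 of the 115295 regions of the deposited count table: 71 in the Mecom window, 51 around Prdm16, 26 around Hlf, 25 around Kit, 6 around Procr and 5 around Slamf1. A window can also hold elements of neighbouring genes. In the RefSeq gene order of GRCm38.p6, Kit lies between Pdgfra and Kdr, Procr between Edem2 and Mmp24, and Mecom between Egfem1 and Actrt3. Hlf lies between Mmd and Stxbp4, Prdm16 between Arhgef16 and Actrt2, and Cd84 follows Slamf1. No region was assigned to a gene beyond its window, and no exon, intron or start site was placed in mm9.

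The data were bulk Omni-ATAC-seq, an assay in which a transposase cuts and tags open chromatin so that read counts measure accessibility. Mice received a single Vwf+ HSC each, an HSC that expresses von Willebrand factor, and were classed by the blood lineages it restored over 16 weeks. The 3 groups were MUL-HSC from multilineage recipients (4 libraries), PEM-HSC from PEM-restricted recipients (6 libraries) and PLT-HSC from P-restricted recipients (3 libraries). The labels do not spell out the letters P and PEM. Every group shared the C57BL/6 strain, the transplantation of a Vwf+ HSC, and the sort of donor-derived bone marrow cells as LSK Flt3- CD150+ CD48- CD45.2+ Gata1-, with 500 cells per replicate. The donor-derived cells of a recipient therefore descended from 1 transplanted cell. Nothing in the labels ties a replicate to a recipient of its own. The p-values therefore measure only the spread between these libraries, which may be technical.

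HSCs sit at the top of blood formation and balance self-renewal against differentiation. Kit is the receptor for stem cell factor, which HSCs need for survival, and it is the "K" of the LSK gate. Slamf1 encodes CD150, a SLAM family receptor that the same gate requires, and Procr encodes the endothelial protein C receptor, another surface marker used to enrich HSCs. Mecom, which encodes the zinc finger factor EVI1, its relative Prdm16 and the bZIP factor Hlf are transcription factors known to sustain HSC self-renewal. Because Kit and CD150 protein were used to sort the cells of all 3 groups, the libraries came from cells already selected for them.

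The upstream sequences of the 2 genes whose windows carried the only accessibility gains past the threshold, Mecom for a single region and Slamf1 for its summed counts, are shown as the 250 bases before the RefSeq start (GRCm38.p6, gene strand). Capitals mark the motif GATA, the core that GATA factors bind. The first lies at chr3:30509760-30510009 on the minus strand and the second at chr1:171766882-171767131 on the plus strand.
Mecom: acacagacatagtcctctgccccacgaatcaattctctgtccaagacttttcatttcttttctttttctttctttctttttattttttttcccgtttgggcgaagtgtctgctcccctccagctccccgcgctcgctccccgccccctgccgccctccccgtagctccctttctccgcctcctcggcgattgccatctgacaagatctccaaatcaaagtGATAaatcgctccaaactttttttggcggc
Slamf1: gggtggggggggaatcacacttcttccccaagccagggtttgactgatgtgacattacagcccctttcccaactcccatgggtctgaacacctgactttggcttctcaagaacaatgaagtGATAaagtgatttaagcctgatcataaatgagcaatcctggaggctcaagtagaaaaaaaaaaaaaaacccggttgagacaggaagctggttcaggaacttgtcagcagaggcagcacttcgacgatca
All 6 genes matched the RefSeq table, with 8 start windows in all. Read on both strands, GATA occurred once in each sequence shown and was held by 53.6% of all 32851 upstream windows of this length. The Hlf window also held it once, the second Mecom start held it 2 times, and the Kit, Procr and Prdm16 windows held none. GGAA, the core of ETS motifs, was in every one of the 8 windows, as in 93.4% of all. TGTGGT, the core of RUNX motifs, was in none of the 8 and in 14% of all, while CANNTG was held by 66.2% and TTACNNAA by 8.09% of all windows. These positions belong to a later build than the count table and were not set against its regions.

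Library totals ran from 1276962 to 3851165 counts, a 3.02-fold range. The mean total was 2013840 for MUL-HSC, 2536748 for PEM-HSC and 2995456 for PLT-HSC, so depth moved with the groups, and its part in the results was not tested. MUL-HSC replicate 3 was the only MUL-HSC library not closest to its own group. Its mean Spearman correlation over regions was 0.853 with the other MUL-HSC libraries, 0.865 with PEM-HSC and 0.854 with PLT-HSC. The value with its own group was near that of MUL-HSC replicate 2 (0.855). PEM-HSC replicates 1, 2, 4 and 5 were likewise closer to PLT-HSC, and PLT-HSC replicate 3 was closer to PEM-HSC. Results that turn on it are given with and without it. Accessibility is given as CPM, the count scaled to the size of its library, and fewer cells with an open region cannot be told apart from less opening per cell.

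All 6 loci were accessible in every library. The lowest summed count at a locus in a library was 41, at Slamf1, and the highest was 1644, at Mecom. Per kilobase of listed region, mean accessibility over the 13 libraries was highest at Procr, 24.4 CPM per kb, followed by Slamf1 (16.7), Prdm16 (15.0), Hlf (13.8), Mecom (13.6) and Kit (12.5), against 17.3 CPM per kb over all regions of the table. The strongest single region of each locus took unequal parts of its signal. It held 55.0% of the counts in the Kit window, 51.1% at Procr and 46.2% at Slamf1. At the transcription factors the signal was spread out, with 22.6% of counts in the strongest region at Hlf, 18.3% at Mecom and 16.1% at Prdm16. Of the 184 regions, 88 passed the filter on low counts, 47.8% against 51.5% of all regions. These were 6 at Kit, 5 at Procr, 4 at Slamf1, 32 at Mecom, 13 at Hlf and 28 at Prdm16. They carried between 81.3% (Hlf) and 97.9% (Procr) of their locus's counts. The other 96 regions did not pass it and enter only the summed counts and an alternative run with no filter. In that alternative 1 of them was called in PLT-HSC against MUL-HSC, the Kit region chr5:75856582-75856814 (adjusted p = 0.0347, edgeR), named after its values were seen. It held 3, 6, 0 and 6 counts in the MUL-HSC libraries, 6 counts in all 6 PEM-HSC libraries and 0 in the 3 PLT-HSC libraries.

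The libraries varied to different degrees by locus. Over all 13 libraries, the coefficient of variation of the summed CPM was 4.29% at Prdm16, 6.07% at Mecom, 9.88% at Procr, 11.7% at Kit, 14.6% at Hlf and 24.0% at Slamf1. Slamf1 also held the fewest counts, 1905 over all libraries against 13412 at Mecom, and the part of counting error in this order was not tested. The plot of summed CPM by window shows these spreads and how the 3 groups lay within them.

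**Figure D1:**
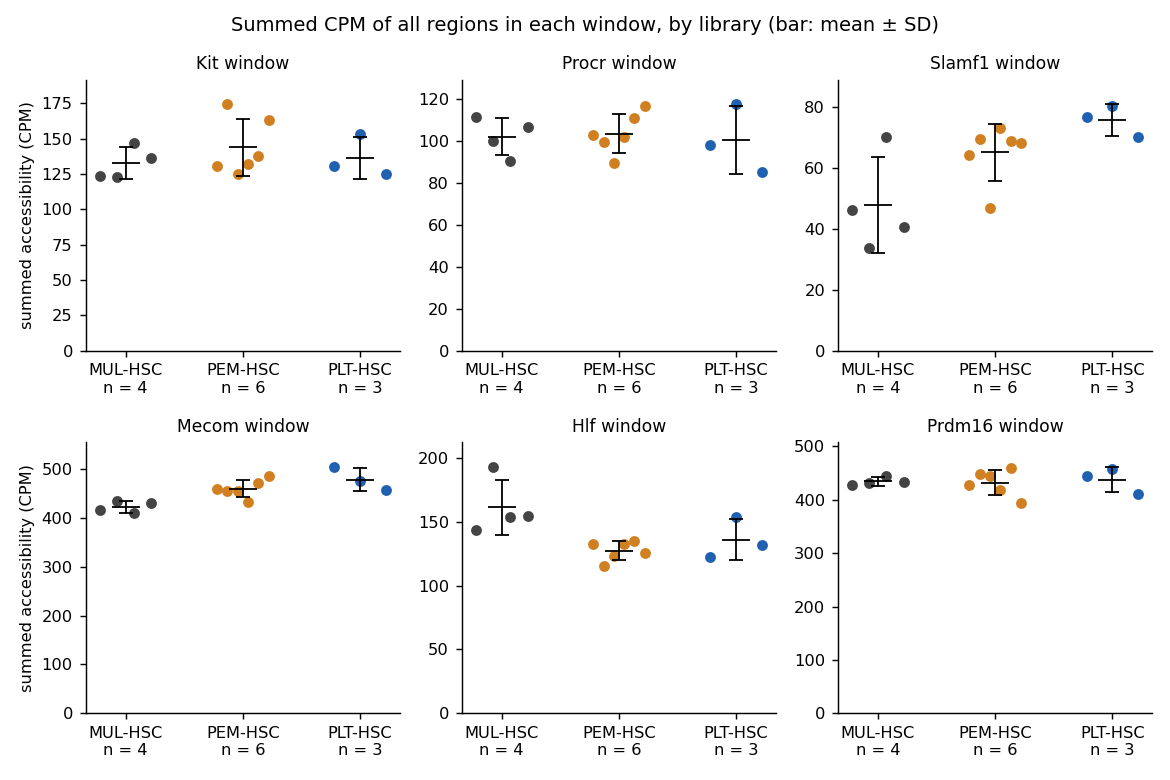
Summed accessibility of each window in CPM (vertical axis, from 0) for each of the 13 libraries (points) in MUL-HSC, PEM-HSC and PLT-HSC, with the mean ± SD of each group. At Slamf1 3 of the 4 MUL-HSC libraries lie below every PEM-HSC and PLT-HSC library, while at Prdm16 the groups lie on top of each other.

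PLT-HSC were compared with MUL-HSC to ask whether HSCs of P-restricted recipients differ at these genes from those of multilineage recipients. Among the tested regions, 2 of 88 changed (2.27%): 1 in the Mecom window rose about 2-fold (ratio 1.98) and 1 in the Prdm16 window fell 1.81-fold. Of all 59408 tested regions, 2.41% changed in this comparison at an adjusted p under 0.05 (edgeR quasi-likelihood test), so the share among these loci was close to that of the whole table. By direction, 1.13% of all regions rose and 1.28% fell. PEM-HSC against MUL-HSC gave the same 2 regions in the same directions, again 2 of 88, against 0.832% of all regions (0.242% higher, 0.589% lower). Both comparisons share the 4 MUL-HSC libraries, so the second is not independent of the first. Testing all 3 groups jointly called these same 2 regions, against 1.67% of all.

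The Mecom region that rose spans chr3:30144886-30146488 and lay 262.1 kb from the strongest region of the window. Its accessibility was 10.9, 15.7, 10.03 and 19.8 CPM in the MUL-HSC libraries, 25.7, 32.7 and 28.0 CPM in PLT-HSC, and from 22.3 to 32.1 CPM with a median of 26.8 in PEM-HSC. All 9 restricted libraries therefore lay above all 4 multilineage ones. Group means were 14.1 ± 4.55 (SD, n = 4), 26.5 ± 3.44 (n = 6) and 28.8 ± 3.56 (n = 3) for MUL-HSC, PEM-HSC and PLT-HSC. The log2 fold change was 0.99 ± 0.21 (SE, adjusted p = 0.00915, edgeR) in PLT-HSC and 0.85 ± 0.19 (adjusted p = 0.0252) in PEM-HSC, both against MUL-HSC. The PLT-HSC call ended without the libraries under 2000000 counts (0.88, adjusted p = 0.105) and with 1 surrogate variable (adjusted p = 0.451). The PEM-HSC call also ended in both of these fits (0.64, adjusted p = 0.472, and 0.93, adjusted p = 0.620) and without MUL-HSC replicate 1, 2 or 3 or PEM-HSC replicate 1, with adjusted p = 0.118, 0.0677, 0.0560 and 0.0554 in that order.

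The Prdm16 region that fell spans chr4:153764455-153765735 and lay 245.7 kb from the strongest region of its window. It read 26.3, 26.5, 21.1 and 20.2 CPM in MUL-HSC, 13.02, 13.08 and 12.2 CPM in PLT-HSC, and 7.60 to 15.0 CPM with a median of 13.3 in PEM-HSC. Here every restricted library lay below every multilineage one. The means were 23.5 ± 3.34 (SD, n = 4), 12.5 ± 2.97 (n = 6) and 12.8 ± 0.490 (n = 3) for MUL-HSC, PEM-HSC and PLT-HSC. The log2 fold change was -0.86 ± 0.23 (adjusted p = 0.0376, edgeR) in PLT-HSC and -0.88 ± 0.19 (adjusted p = 0.0269) in PEM-HSC. The direction held in all 23 alternative fits. Leaving out a library could hardly turn it, since MUL-HSC did not overlap the other groups. The PLT-HSC call ended under DESeq2 (adjusted p = 0.0532) and in the 2 fits named for Mecom (0.305 and 0.795). It also ended without MUL-HSC replicate 1 (0.108), 2 (0.0940) or 4 (0.0609) or any PLT-HSC replicate (0.129, 0.0937 and 0.0761). The PEM-HSC call ended in those 2 fits (0.487 and 0.768) and without MUL-HSC replicate 1 (0.113), 2 (0.105) or 4 (0.0754) or PEM-HSC replicate 1 (0.0682).

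**Figure D2:**
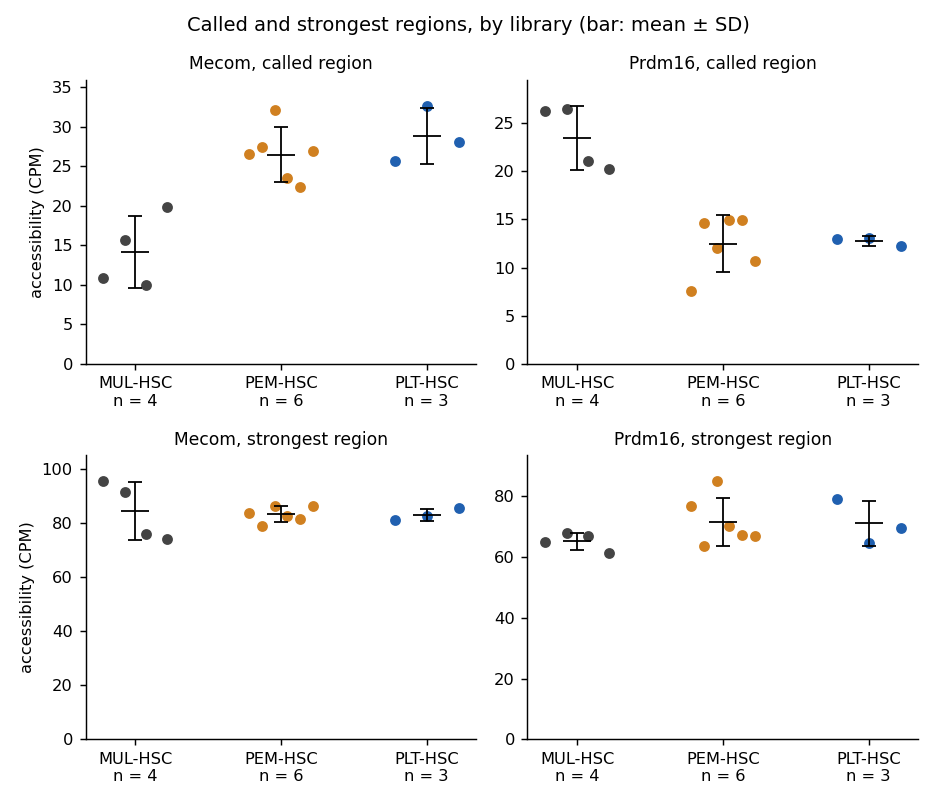
Accessibility in CPM (vertical axis, from 0) of the Mecom and Prdm16 regions that changed (top) and of the strongest region of each window (bottom), with 1 point per library and the mean ± SD of each group. In the top panels the MUL-HSC libraries do not overlap the other 9, while in the bottom panels the groups overlap.

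The strongest regions of these same windows passed no threshold. At Mecom the strongest region, chr3:30407085-30408442, averaged 84.5 ± 10.8 CPM for MUL-HSC, 83.4 ± 2.91 for PEM-HSC and 83.3 ± 2.25 for PLT-HSC, with fold changes smaller than their standard errors. At Prdm16 the strongest region, chr4:154009734-154011794, averaged 65.2 ± 2.81, 71.6 ± 7.88 and 71.0 ± 7.41 CPM in the same order. Its log2 fold change was 0.14 ± 0.12 in PLT-HSC (adjusted p = 0.645) and 0.14 ± 0.10 in PEM-HSC (adjusted p = 0.582). The strongest region is by definition the one of highest mean CPM in its window. Means over all libraries were 23.2 and 15.9 CPM in the 2 regions that changed, against 83.7 and 69.5 CPM in the strongest regions.

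A second region of each of these windows was named for the smallest joint p among those that were not called, a choice that favours separated groups. The Mecom region chr3:30006992-30007528 was listed at 0, 1.65, 4.01 and 4.19 CPM in MUL-HSC, 8.46, 7.94 and 7.59 in PLT-HSC, and 5.07 to 10.9 with a median of 7.19 in PEM-HSC. The groups did not overlap, but the adjusted p was 0.0543 for PLT-HSC (log2 fold change 1.52 ± 0.43) and 0.0803 for PEM-HSC (1.41 ± 0.39). It passed the threshold for PLT-HSC with loess scaling (0.0495), without MUL-HSC replicate 3 (1.75, 0.0405) and without PEM-HSC replicate 3 (0.0477). It was smaller without the libraries under 2000000 counts (0.94, adjusted p = 0.341) and without MUL-HSC replicate 1, the library at 0 (1.15, adjusted p = 0.150), and its adjusted p was 0.779 with 1 surrogate variable. Only 21 counts from 4 libraries stood behind the MUL-HSC values.

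At Prdm16 the corresponding region, chr4:153733688-153734793, read 6.42, 5.79, 6.52 and 5.72 CPM in MUL-HSC and 10.7, 20.6 and 8.57 CPM in PLT-HSC. PEM-HSC lay between 7.64 and 17.7 CPM with a median of 10.7, so the MUL-HSC libraries were the lowest 4 of 13. The choice by smallest joint p favours such a separation. The log2 fold change was 1.08 ± 0.34 in PLT-HSC (adjusted p = 0.0823) and 0.91 ± 0.31 in PEM-HSC (adjusted p = 0.150). Without PLT-HSC replicate 3 the PLT-HSC value passed the threshold (1.31, adjusted p = 0.0330), while it was 0.66 (adjusted p = 0.427) without PLT-HSC replicate 2, the library at 20.6 CPM, and 0.15 (adjusted p = 0.987) with 1 surrogate variable. This region and the one that fell lie within the same stretch of the window, 276.5 and 245.7 kb from its strongest region, with fold changes of opposite sign, as the plot of fold change by position shows.

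**Figure D3:**
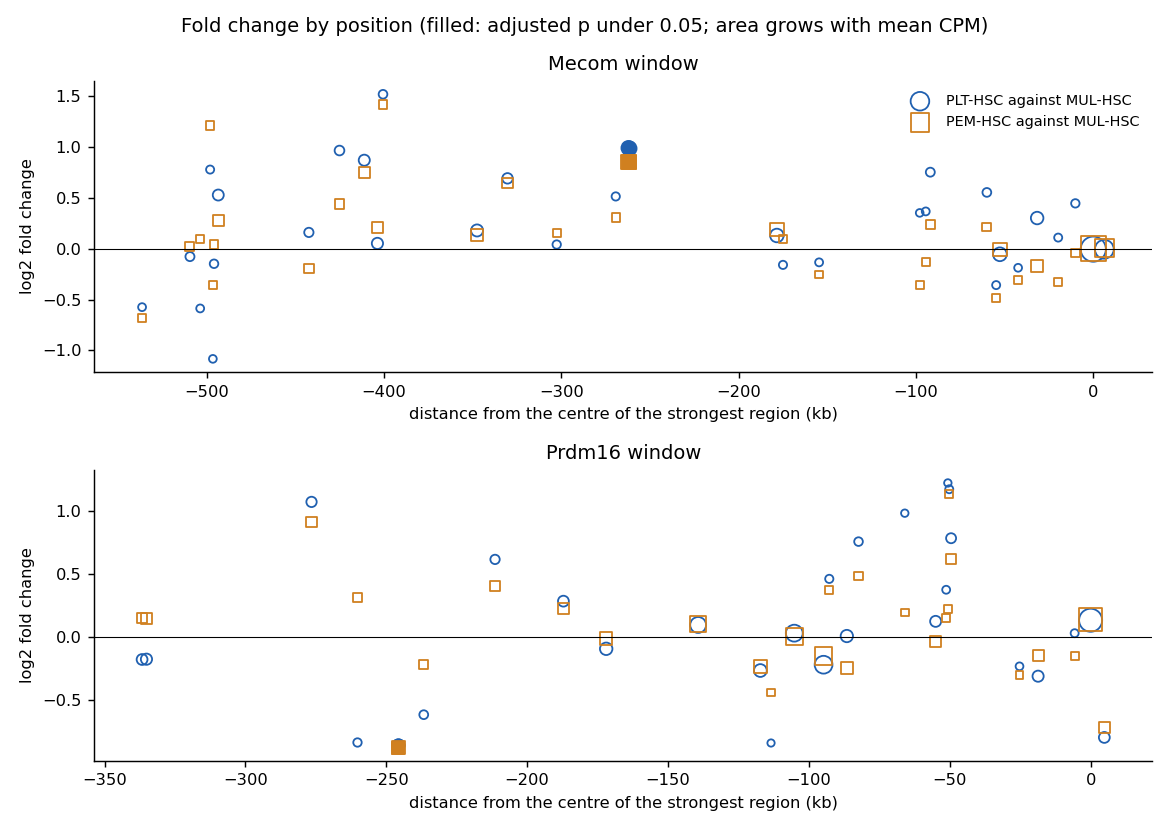
Log2 fold change against MUL-HSC (vertical axis) of each tested region of the Mecom (top, 32 regions) and Prdm16 (bottom, 28 regions) windows by its distance in kb from the centre of the strongest region (horizontal axis). Circles are PLT-HSC and squares PEM-HSC, symbol area grows with mean CPM, and filled symbols have an adjusted p under 0.05. At Prdm16 the filled square covers the filled circle. The large symbols near 0 kb lie close to a fold change of 0.

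Summed over the whole window, Mecom accessibility was 415, 434, 409 and 429 CPM in MUL-HSC, 503, 474 and 456 CPM in PLT-HSC, and 433 to 484 CPM with a median of 456 in PEM-HSC. The 3 PLT-HSC libraries lay above the 4 MUL-HSC ones, but the log2 fold change of 0.18 ± 0.08 did not pass the threshold (adjusted p = 0.295), and neither did 0.12 ± 0.07 in PEM-HSC (adjusted p = 0.480). Prdm16 was the steadiest locus, with means of 434 ± 7.77, 432 ± 23.7 and 437 ± 23.7 CPM in MUL-HSC, PEM-HSC and PLT-HSC. Its fold changes were smaller than their standard errors in all 3 comparisons.

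The bZIP factor Hlf had the opposite sign. The Hlf window summed to 144, 193, 154 and 154 CPM in MUL-HSC, 122, 154 and 132 CPM in PLT-HSC, and 115 to 135 CPM with a median of 129 in PEM-HSC. All 6 PEM-HSC libraries lay below all 4 MUL-HSC libraries, while PLT-HSC overlapped both. The log2 fold change was -0.33 ± 0.09 in PEM-HSC (adjusted p = 0.0829) and -0.24 ± 0.11 in PLT-HSC (adjusted p = 0.266), neither past the threshold. These values were negative in all 25 alternatives run for each, with adjusted p from 0.0524 to 0.825 for PEM-HSC. Leaving out a library could hardly turn the sign in PEM-HSC, since its libraries did not overlap those of MUL-HSC.

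Within the Hlf window, the strongest region, chr11:90251839-90252498, read 37.2, 55.4, 36.6 and 27.8 CPM in MUL-HSC. It read 26.0, 38.8 and 29.0 CPM in PLT-HSC and 17.7 to 33.8 CPM with a median of 30.5 in PEM-HSC. The groups overlapped, with log2 fold changes of -0.30 ± 0.21 in PLT-HSC (adjusted p = 0.545) and -0.40 ± 0.18 in PEM-HSC (adjusted p = 0.335). The small region chr11:90226235-90226560 was named for the smallest joint p in the window, a choice that favours separated groups. It was at 5.78, 6.61, 5.02 and 3.81 CPM in MUL-HSC, against 1.63, 1.40 and 2.64 CPM in PLT-HSC and 1.15 to 2.86 CPM with a median of 1.80 in PEM-HSC. No library of either restricted group reached the lowest MUL-HSC value. The log2 fold changes of -1.40 ± 0.55 and -1.33 ± 0.46 did not pass the threshold (adjusted p = 0.190 and 0.171), with 82 counts in all 13 libraries.

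Among the surface proteins, only Slamf1 passed the threshold as a sum. Its 5 regions summed to 46.2, 33.9, 70.2 and 40.8 CPM in MUL-HSC and 76.8, 80.4 and 70.2 CPM in PLT-HSC, with 47.0 to 73.3 CPM and a median of 68.6 in PEM-HSC. The means were 47.8 ± 15.8 (SD, n = 4), 75.8 ± 5.13 (n = 3) and 65.2 ± 9.37 (n = 6). PLT-HSC were 1.56-fold higher than MUL-HSC, with a log2 fold change of 0.64 ± 0.17 (adjusted p = 0.0481, edgeR over all regions and the 6 sums), and this was the only 1 of the 6 sums called. The groups just missed overlapping, since MUL-HSC replicate 3 was at 70.22 CPM and the lowest PLT-HSC library at 70.25 CPM. PEM-HSC were at 0.44 ± 0.15 (adjusted p = 0.188), and PLT-HSC differed from PEM-HSC by 0.21 ± 0.15.

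The sum was also fitted without MUL-HSC replicate 3. At 70.2 CPM that library was the highest of MUL-HSC, so leaving it out had to raise the difference. In that fit the log2 fold change of the Slamf1 sum was 0.89 in PLT-HSC (adjusted p = 0.00108) and 0.69 in PEM-HSC (adjusted p = 0.00745). The call held in 8 of 25 alternatives, and the adjusted p ranged from 0.00108 to 0.962. It was lost without MUL-HSC replicate 1 (0.135), 2 (0.111) or 4 (0.161), without PEM-HSC replicate 1 (0.0589), 2 (0.0548) or 6 (0.0599), and without any PLT-HSC replicate (0.168, 0.142 and 0.0521). With 1 surrogate variable the fold change was 0.16 (0.962), and without the libraries under 2000000 counts it was 0.47 (0.252).

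No single Slamf1 region passed the threshold. The strongest, chr1:173702848-173703963, read 23.1, 13.2, 36.1 and 16.4 CPM in MUL-HSC, 37.1, 35.04 and 31.0 CPM in PLT-HSC, and 24.1 to 33.4 CPM with a median of 31.7 in PEM-HSC. MUL-HSC replicate 3 lay among the PLT-HSC values and the other 3 MUL-HSC libraries below every PEM-HSC and PLT-HSC library. The log2 fold change was 0.60 ± 0.21 in PLT-HSC (adjusted p = 0.133) and 0.43 ± 0.19 in PEM-HSC (adjusted p = 0.301). Without that library these became 0.95 (adjusted p = 0.00579) and 0.79 (adjusted p = 0.0184). Without MUL-HSC replicate 4 the PEM-HSC value was 0.26 (adjusted p = 0.684), and with 1 surrogate variable the PLT-HSC value was 0.04 (adjusted p = 0.998). The region chr1:173718706-173719269 was named for the smallest joint p after the strongest region. It averaged 2.48 ± 1.24, 5.07 ± 2.79 and 6.04 ± 1.26 CPM in MUL-HSC, PEM-HSC and PLT-HSC. Its log2 fold changes were 1.16 ± 0.46 in PLT-HSC (adjusted p = 0.202) and 1.04 ± 0.42 in PEM-HSC (adjusted p = 0.252). Here MUL-HSC replicate 3, at 1.505 CPM, was the lowest of the 13 libraries. The other tested regions, chr1:173691783-173692742 and chr1:173697128-173697925, were at 0.53 ± 0.21 (adjusted p = 0.200) and 0.38 ± 0.38 (adjusted p = 0.702) in PLT-HSC, so all 4 fitted values were above 0.

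**Figure D4:**
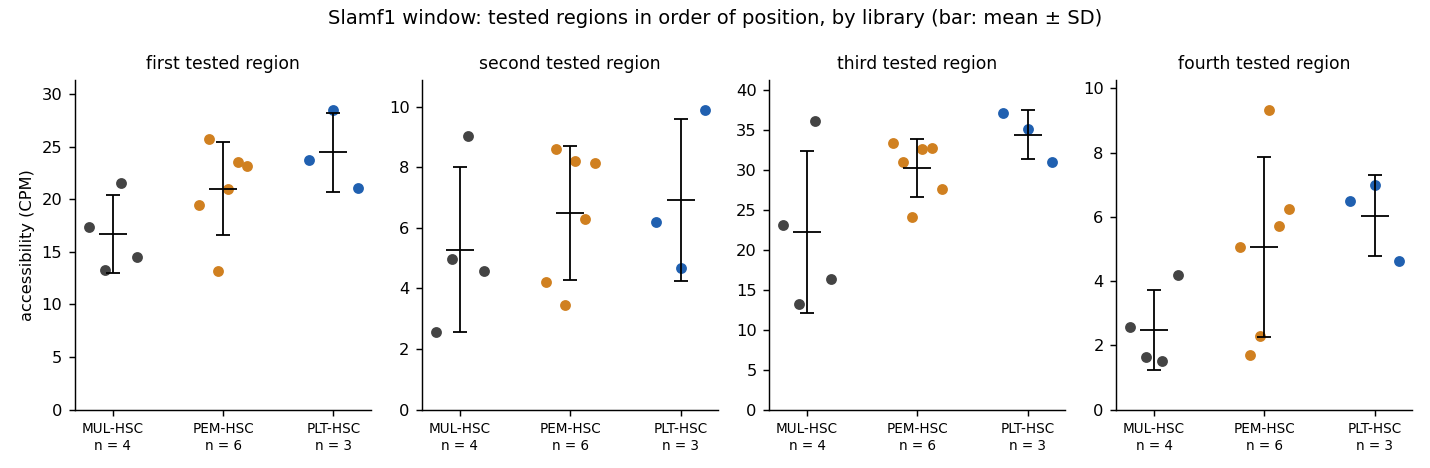
Accessibility in CPM (vertical axes, from 0, with a scale for each panel) of the 4 tested regions of the Slamf1 window in order of position, with 1 point per library and the mean ± SD of each group. In the strongest region (the third panel) 1 MUL-HSC library lies at 36.1 CPM, among the PLT-HSC libraries, and the other 3 lie at 23.1 CPM or lower.

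Kit and Procr showed no called change in their summed signal. The Kit window averaged 133 ± 11.3, 144 ± 20.03 and 136 ± 14.8 CPM in MUL-HSC, PEM-HSC and PLT-HSC, and the Procr window 102 ± 8.97, 103 ± 9.32 and 100.1 ± 16.2 CPM. Their fold changes against MUL-HSC were smaller than their standard errors. The strongest Kit region, chr5:75970399-75972272, was at 74.9 ± 6.25, 77.6 ± 9.97 and 75.1 ± 2.12 CPM in the same order, again with fold changes below their standard errors.

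The strongest Procr region, chr2:155567941-155569464, read 70.0, 60.4, 51.2 and 59.5 CPM in MUL-HSC, 42.3, 51.4 and 46.8 CPM in PLT-HSC, and 37.8 to 58.8 CPM with a median of 50.9 in PEM-HSC. The values overlapped at MUL-HSC replicate 3, and the log2 fold changes of -0.36 ± 0.14 (adjusted p = 0.175) and -0.24 ± 0.12 (adjusted p = 0.379) did not pass the threshold. A second Procr region, chr2:155576735-155577484, was named for the smallest joint p after the strongest region. It had the other sign, with 11.7 ± 5.18, 15.7 ± 2.54 and 18.3 ± 5.03 CPM in MUL-HSC, PEM-HSC and PLT-HSC and a log2 fold change of 0.67 ± 0.27 in PLT-HSC (adjusted p = 0.219). The 2 regions lie 8.41 kb apart, and the summed count holds both.

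Taking each locus by its tested regions, the median log2 fold change of PLT-HSC against MUL-HSC was 0.57 at Slamf1, 0.24 at Kit, 0.18 at Procr, 0.14 at Mecom, 0.03 at Prdm16 and -0.30 at Hlf, against 0.01 over all tested regions. In PEM-HSC against MUL-HSC the medians were 0.38, 0.40, 0.37, 0.07, 0.13 and -0.07 in that order of loci, against 0.01 over all. Of the 15 tested regions at the surface proteins, 11 were above 0 in PLT-HSC and 13 in PEM-HSC. Of the 73 at the transcription factors, 41 and 40 were. Over all tested regions 51.4% and 51.9% lay above 0. These are descriptions of the regions that passed the filter, and regions of 1 window come from the same libraries and are not replicates.

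**Figure D5:**
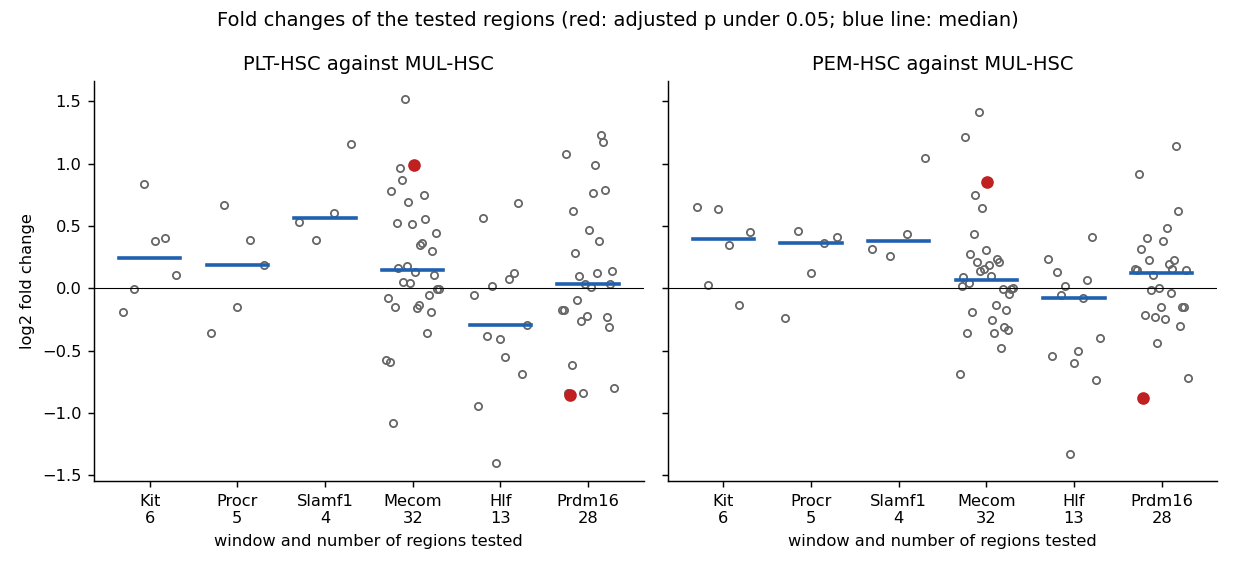
Log2 fold change (vertical axis) of each tested region by window, for PLT-HSC (left) and PEM-HSC (right) against the shared MUL-HSC libraries, with the number of regions tested under each name. Red points have an adjusted p under 0.05 and blue lines are medians. All 4 Slamf1 points lie above 0 in both panels, and the Hlf medians lie below 0.

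At an unadjusted p under 0.05, 20 of the 88 regions (22.7%) differed between PLT-HSC and MUL-HSC, against 15.4% of all regions: 15 were higher (17.0%, against 7.47% of all) and 5 lower (5.68%, against 7.93%). Mecom held 7 of the 20, Prdm16 held 5, Slamf1 held 3, Procr and Hlf held 2 each and Kit held 1. In PEM-HSC against MUL-HSC it was 14 regions (15.9%, against 13.6% of all), with 10 higher (11.4%, against 6.2%) and 4 lower (4.55%, against 7.45%). Values of the 2 groups did not overlap for 15 regions (17.0%) in PLT-HSC against MUL-HSC, where 13.2% of all regions did not: 11 were higher (12.5%, against 6.67% of all) and 4 lower (4.55%, against 6.56%). They did not overlap for 7 regions (7.95%) in PEM-HSC against MUL-HSC, where 3.59% of all did not: 5 were higher (5.68%, against 1.51% of all) and 2 lower (2.27%, against 2.08%). Of these, only the Mecom and Prdm16 regions already described passed the correction over the table. Without MUL-HSC replicate 3 the regions called in PLT-HSC against MUL-HSC numbered 5, 4 higher and 1 lower. They were these 2, the strongest Slamf1 region, the Mecom region chr3:30006992-30007528 and a further Mecom region, chr3:29982220-29983228 (1.23, adjusted p = 0.0430), named after its values were seen. The share of all regions called in that fit is not given, so this rise is not read as particular to these loci.

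PLT-HSC were then set against PEM-HSC, to ask whether the 2 restricted classes differ from each other. None of the 88 regions and none of the 6 sums passed the threshold in edgeR or DESeq2, as only 1 of all 59408 regions did (0.00168%). At an unadjusted p under 0.05 there were 2 regions (2.27%, against 4.61% of all), 1 higher (2.45% of all) and 1 lower (2.16% of all). The Kit region chr5:75861599-75862248 averaged 9.60 ± 3.08 CPM in PEM-HSC and 5.35 ± 1.82 CPM in PLT-HSC (log2 fold change -0.84 ± 0.34), with MUL-HSC at 5.54 ± 3.08. The Mecom region chr3:30375868-30376344, named after its values were seen, averaged 15.3 ± 3.59 CPM in PEM-HSC and 21.4 ± 5.10 CPM in PLT-HSC (0.47 ± 0.21). Both had an adjusted p of 1 (edgeR). Fitted values were above 0 for 52 of the 88 (59.1%, against 50% of all). No region separated the 2 groups without overlap, where 2.29% of all regions did (1.32% higher, 0.968% lower). For the 2 regions that changed against MUL-HSC, PLT-HSC differed from PEM-HSC by 0.14 ± 0.17 (Mecom) and 0.02 ± 0.22 (Prdm16) on the log2 scale.

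Across the 13 libraries, the log2 CPM of the summed counts was most alike between Slamf1 and Mecom (Pearson r = 0.493) and then between Slamf1 and Kit (0.483). For Procr the closest locus was Kit (0.361), for Hlf it was Procr (0.127) and for Prdm16 it was Hlf (0.0932). The lowest value was between Slamf1 and Hlf (-0.575), with Hlf and Mecom at -0.496. These describe libraries that share 3 groups and differ in depth, and no test was made of them.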

How the data were processed

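The deposited table holds raw counts of reads or fragments per accessible region, not normalised, in 13 libraries. The submitters' processing notes name Bowtie2, MACS2, SAMtools, Picard, FastQC and Trim Galore with the mm9 build. No more of the authors' processing was given here, including the counting tool, the shift of read ends for the transposase, and whether libraries were pooled for peak calling. Regions called mainly in deep libraries could leave out weak regions of shallow ones. Positions are printed as deposited, with the first base numbered 0 or 1 by a rule not stated.

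All regions entered 1 fit in R 4.3.3 with the robust quasi-likelihood test of edgeR 4.0.16, with TMM factors, a coefficient for each of the 3 groups and two-sided tests. The filterByExpr function by group left 59408 regions holding 91.4% of counts. Benjamini-Hochberg adjustment ran over the whole table, with calls at an adjusted p under 0.05. The counts of all regions in a window, thin ones included, were summed and added to the same fit as 6 further features. A standard error is |log2 fold change| over the square root of its F value, and CPM uses the TMM-scaled totals of the tested regions. The biological coefficient of variation was 15.6%. The script was tested on simulated data.

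The members and lists were chosen with earlier results of these data known. Named regions were those called in any comparison, the strongest region of each window and the uncalled region of smallest joint p in each. Alternatives were DESeq2 1.42.0, library totals alone, cyclic loess offsets (limma 3.58.1), other filters, a replicate block, a fit without robust estimation, only the compared groups, a covariate from sva 3.50.0 (1 surrogate variable), no library under 2000000 counts and each library left out in turn. Replicate pairs within a group differed beyond sampling noise in all 24 cases (chi-square per degree of freedom from 1.45 to 2.46). Markers of other cell types and other genes of the pathway were not placed in mm9 and are not analysed here. RefSeq upstream sequences (GRCm38.p6) were read on the gene strand. The ± values are SDs between libraries for CPM and standard errors of the fit for fold changes.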

Additional observations from a re-analysis of the deposited data

Results flagged for a closer look

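In a set of 40 groups of 4 or 6 values, made of the 14 named regions and 6 summed windows in MUL-HSC and PEM-HSC, 2 held a library far from the rest, and chance gives about 1 in 20. At the strongest Hlf region, chr11:90251839-90252498, PEM-HSC replicate 1 was at 17.7 CPM, while the other 5 PEM-HSC libraries lay between 29.2 and 33.8 CPM. Without it the log2 fold change against MUL-HSC was -0.28 (adjusted p = 0.509, edgeR), against -0.40 with it. It was -0.22 (adjusted p = 0.706) without MUL-HSC replicate 2, the library at 55.4 CPM, -0.24 (adjusted p = 0.944) with 1 surrogate variable and -0.25 (adjusted p = 0.823) without the libraries under 2000000 counts. In the summed Slamf1 window PEM-HSC replicate 3 was at 47.0 CPM, while the other 5 PEM-HSC libraries lay between 64.2 and 73.3 CPM. Without it the Slamf1 sum of PEM-HSC against MUL-HSC was 0.51 (adjusted p = 0.0713, edgeR), against 0.44 with it.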

How the results depend on the processing

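The main counts of called regions were 2 for PLT-HSC and 2 for PEM-HSC against MUL-HSC, 2 for any difference and 0 between the restricted groups, and 1, 0 and 0 for the 6 sums. For PLT-HSC against MUL-HSC the regions called fell to 1 under DESeq2, 1 with the replicate block, 0 with 1 surrogate variable and 0 without the libraries under 2000000 counts, and leaving out single libraries gave 1 to 5. They rose to 3 with no filter, which added the thin Kit region chr5:75856582-75856814, and to 3 with loess, which added the Mecom region chr3:30006992-30007528. For PEM-HSC they fell to 0 with the replicate block, 0 with the surrogate variable and 0 without those libraries, and single libraries gave 0 to 2. The joint test gave 1 with the replicate block, 0 and 0 in the same fits, and 0 to 2. The 1 sum called, Slamf1, became 0 with library totals alone, loess, a mean of at least 20 counts, the replicate block (0.65, adjusted p = 0.244, edgeR), the surrogate variable, no library under 2000000 counts, only the compared groups, and a sum over tested regions (an alternative chosen after seeing the data). Single libraries gave 0 to 1 for PLT-HSC and 0 to 1 for PEM-HSC, the 1 being Slamf1 without MUL-HSC replicate 3. The PLT-HSC against PEM-HSC counts stayed 0 in all 23 and 25 alternatives. The share of all regions called is not given for the alternatives, so changes in these counts are not read as particular to these loci. Among fold changes at least as large as their standard error, 2 turned in sign. They were the Mecom sum of PEM-HSC under loess (-0.019) and the strongest Slamf1 region of PEM-HSC with the surrogate variable (-0.0037). The cause was not tested. Of the fitted fold changes, 1316 counted as unchanged, 43 lost a call and 7 gained one. Most of those unchanged were not called in the main fit and had no call to lose. The Mecom region lost its call in 2 of 23 alternatives for PLT-HSC and 7 of 23 for PEM-HSC. The Prdm16 region lost it in 10 of 23 and 7 of 23, and the Slamf1 sum of PLT-HSC in 17 of 25. A fold change smaller than its standard error counted as unchanged if it shifted by at most 1 standard error, whatever its sign. Another 24 such fold changes shifted further.

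The replicate numbers gave no sign of pairing the libraries. Correlations between same-numbered libraries, taken on log2 CPM after subtracting each group's mean, ran from -0.136 to 0.0992. Those of the other pairs ran from -0.160 to 0.215. By these values 0 of 11 libraries correlated best with its own number. Deviations within groups this small are a weak test, so pairing was not excluded. With the number as a block, the Prdm16 region had an adjusted p of 0.108 in PLT-HSC and 0.115 in PEM-HSC, and the Mecom region one of 0.0826 in PEM-HSC. With few counts per region at a median standard error of 0.34 in log2 for PLT-HSC against MUL-HSC, small differences were not detectable at this depth.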
